A study of Homo sapiens with 12 samples.

Results

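The annexins are a family of calcium-dependent, phospholipid-binding proteins. The 9 annexin genes described here (ANXA1, ANXA3, ANXA4, ANXA5, ANXA6, ANXA7, ANXA10, ANXA11 and ANXA13) were found by symbol among the 62703 genes listed for each line. They were chosen by the fall of ANXA1 counts in Huh7, known from an earlier reading of the same data, so every value of the Huh7 comparison is given for them as a description, with no p. The Hep3B comparison was not used to choose them and is tested. RNA was sequenced from Huh7 and Hep3B, established human hepatocellular carcinoma cell lines, each with a control short hairpin (shNC) or with shSLC6A8, a short hairpin that targets the creatine transporter SLC6A8. All 12 libraries, 3 in each of the 4 groups, came from cells kept in hypoxia for 24 hours, so no comparison with normal oxygen was made. No label says whether the 3 libraries of a group came from separate cultures, so p-values reflect only how far these libraries spread, and that spread may be technical. The labels name 1 knockdown genotype for each line and do not say how many hairpin sequences or clones it holds. In bulk RNA, fewer cells of a type and less RNA per cell cannot be told apart.

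An annexin consists of a conserved core of repeated helical domains, which binds negatively charged phospholipids such as phosphatidylserine when calcium is present, and a variable N-terminal tail, which binds partners such as S100 proteins. Through the core, annexins gather at the inner face of the plasma membrane, at endosomes and at secretory granules, where they take part in membrane repair, vesicle traffic and the organisation of membrane domains. ANXA1 is also released from cells, where it acts on formyl peptide receptors and dampens inflammation, and its synthesis is raised by glucocorticoids in many tissues. Hepatocytes express several annexins, and liver tumour cells can differ from them in which members they express.

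Upstream sequences are shown for 4 members, picked after their values were seen: ANXA1 and ANXA5, lower in knockdown cells of Huh7, and ANXA3 and ANXA6, which moved in opposite directions in the 2 lines. Each is the stretch of 250 bases before the first RefSeq start of the gene on build GRCh38.p14, written 5′ to 3′ on the gene's strand. It lies at chr9:73151615-73151864 on the plus strand for ANXA1, at chr4:78551520-78551769 on the plus strand for ANXA3, at chr4:121696981-121697230 on the minus strand for ANXA5 and at chr5:151157780-151158029 on the minus strand for ANXA6. Capitals mark the matches to the motifs searched.
ANXA1: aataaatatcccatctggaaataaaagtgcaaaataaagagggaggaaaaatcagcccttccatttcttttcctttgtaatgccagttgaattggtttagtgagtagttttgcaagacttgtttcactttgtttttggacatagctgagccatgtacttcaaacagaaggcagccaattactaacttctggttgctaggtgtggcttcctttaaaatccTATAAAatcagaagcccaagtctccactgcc
ANXA3: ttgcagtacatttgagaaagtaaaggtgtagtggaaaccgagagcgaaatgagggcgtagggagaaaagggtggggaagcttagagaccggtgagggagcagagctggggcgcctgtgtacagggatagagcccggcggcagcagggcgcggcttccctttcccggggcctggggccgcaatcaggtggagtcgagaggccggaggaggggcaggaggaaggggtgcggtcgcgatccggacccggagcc
ANXA5: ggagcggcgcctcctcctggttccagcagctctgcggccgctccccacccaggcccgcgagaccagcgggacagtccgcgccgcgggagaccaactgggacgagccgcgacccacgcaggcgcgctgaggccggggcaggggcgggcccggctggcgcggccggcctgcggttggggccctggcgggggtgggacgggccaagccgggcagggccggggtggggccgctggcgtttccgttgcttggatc
ANXA6: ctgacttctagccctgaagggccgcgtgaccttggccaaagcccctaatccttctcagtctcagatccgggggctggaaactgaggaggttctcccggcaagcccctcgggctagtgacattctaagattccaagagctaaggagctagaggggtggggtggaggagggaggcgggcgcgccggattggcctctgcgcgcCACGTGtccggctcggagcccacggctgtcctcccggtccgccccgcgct

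A set of 5 motifs was searched on both strands of these windows and of all 35116 RefSeq promoters of the same length. They were the AP-1 motif TGANTCA, held by 6.57% of all promoters, the TEAD motif GGAATG, held by 11.9%, the hypoxia response core ACGTG, held by 18.5%, the antioxidant response core TGACNNNGC, held by 10.9%, and the TATA box TATAAA, held by 10.7%. The ANXA1 window held a TATA box 31 bases before the start and had a GC content of 38.4%, against a median of 58% over all promoters. The ANXA6 window, with 65.6% GC, held the hypoxia response core on both strands, as the palindrome CACGTG from 50 bases before the start. The ANXA3 and ANXA5 windows, with 64% and 78.8% GC, held none of the 5 letter patterns. Of the 9 members, 8 had an entry in the promoter table. Among the others, ANXA10 held a TATA box 29 bases before its start and ANXA11 held one 61 bases before its first listed start. The hypoxia response core was also found on both strands before the second listed start of ANXA4, as the same palindrome from 216 bases upstream. A match of letters is a description of the window and not a binding site.

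The libraries held 21065965 to 28078068 estimated counts each, and no library was left out. Counts are given as CPM, which is relative to library depth after TMM scaling, for comparisons between hairpins, and as the deposited TPM, which is also scaled for gene length, for comparisons between genes. A gene was called changed at a Benjamini-Hochberg adjusted p under 0.05 in edgeR's quasi-likelihood test over all tested genes of a line. SLC6A8, the targeted gene, had 35.6, 36.9 and 36.7 CPM in control and 8.63, 8.6 and 11 CPM in knockdown libraries of Huh7 (log2 fold change -1.95, edgeR adjusted p = 1.02e-11, n = 3 per group). In Hep3B it had 362, 378 and 371 CPM in control and 34.6, 33.9 and 35.1 CPM in knockdown libraries (log2 fold change -3.42, edgeR adjusted p = 2.13e-10). All 7 hepatocyte markers (ALB, APOA1, APOH, TTR, AFP, SERPINA1 and HNF4A) exceeded 1 TPM in every group, and their summed level was 8363 to 9069 TPM in Huh7 control, 11896 to 12227 in Huh7 knockdown, 15809 to 16099 in Hep3B control and 12461 to 13034 in Hep3B knockdown libraries. ALB was the largest part of each sum, and not all markers moved with it. In Hep3B, ALB averaged 10597 TPM in control and 8665 in knockdown cells, while APOA1 averaged 1372 and 1688 TPM. AFP averaged 2083 TPM in Huh7 control and 40.1 TPM in Hep3B control cells. Of markers of other cell types, the leukocyte markers PTPRC and CD3E stayed at or under 0.38 TPM and the endothelial markers KDR and CDH5 at or under 0.04 TPM in every library. The 5 leukocyte markers together summed to 313 to 324 TPM in Huh7 control, 648 to 684 in Huh7 knockdown, 387 to 409 in Hep3B control and 207 to 223 TPM in Hep3B knockdown libraries, most of it LYZ. The 5 cholangiocyte markers, led by KRT19 and EPCAM, summed to 829 to 865, 488 to 523, 710 to 731 and 844 to 894 TPM in the same order. They did not move together in Huh7. KRT19 averaged 664 TPM in control and 291 in knockdown cells there, while SOX9 averaged 14.8 and 40 and EPCAM 160 and 167 TPM. The 5 fibroblast or stellate markers summed to at most 37.9 TPM and the 5 endothelial markers to at most 2.62 TPM in any library. The part of these levels in the annexin values was not tested.

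In control cells the 2 lines differed in which of the 9 members dominated. Levels of the lines come from separately made tables and are set side by side only approximately. In Huh7 control cells, ANXA5 was the most abundant member at 411 ± 8.79 TPM (SD, n = 3), followed by ANXA1 at 172 ± 1.68, ANXA4 at 104 ± 7.44 and ANXA7 at 95.1 ± 3.23 TPM. The libraries of ANXA4 and ANXA7 overlapped, and those of all other neighbours in this order did not. Below them lay ANXA3 at 70.0 ± 1.61, ANXA11 at 62.7 ± 2.44, ANXA6 at 30.8 ± 1.02 and ANXA13 at 2.36 ± 0.523 TPM. ANXA10 was listed at 0 TPM in 2 libraries and at 0.24 TPM in the other.

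In Hep3B control cells, ANXA4 led at 351 ± 17.6 TPM, ahead of ANXA5 at 187 ± 5.94, ANXA11 at 58.4 ± 4.53, ANXA7 at 47.5 ± 3.14 and ANXA3 at 37.7 ± 3.33 TPM. ANXA13 at 5.20 ± 0.83 and ANXA10 at 4.64 ± 1.74 TPM overlapped, and ANXA6 lay below them at 2.40 ± 0.144 TPM. ANXA1, the second most abundant member in Huh7, was the lowest in Hep3B, listed at 0.39, 0.51 and 0 TPM. The plot of levels by library shows that ANXA1 and ANXA6 were mainly found in Huh7, that ANXA10 was mainly found in Hep3B, and that ANXA11 lay between 54.65 and 65.05 TPM in all libraries.

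**Figure D1:**
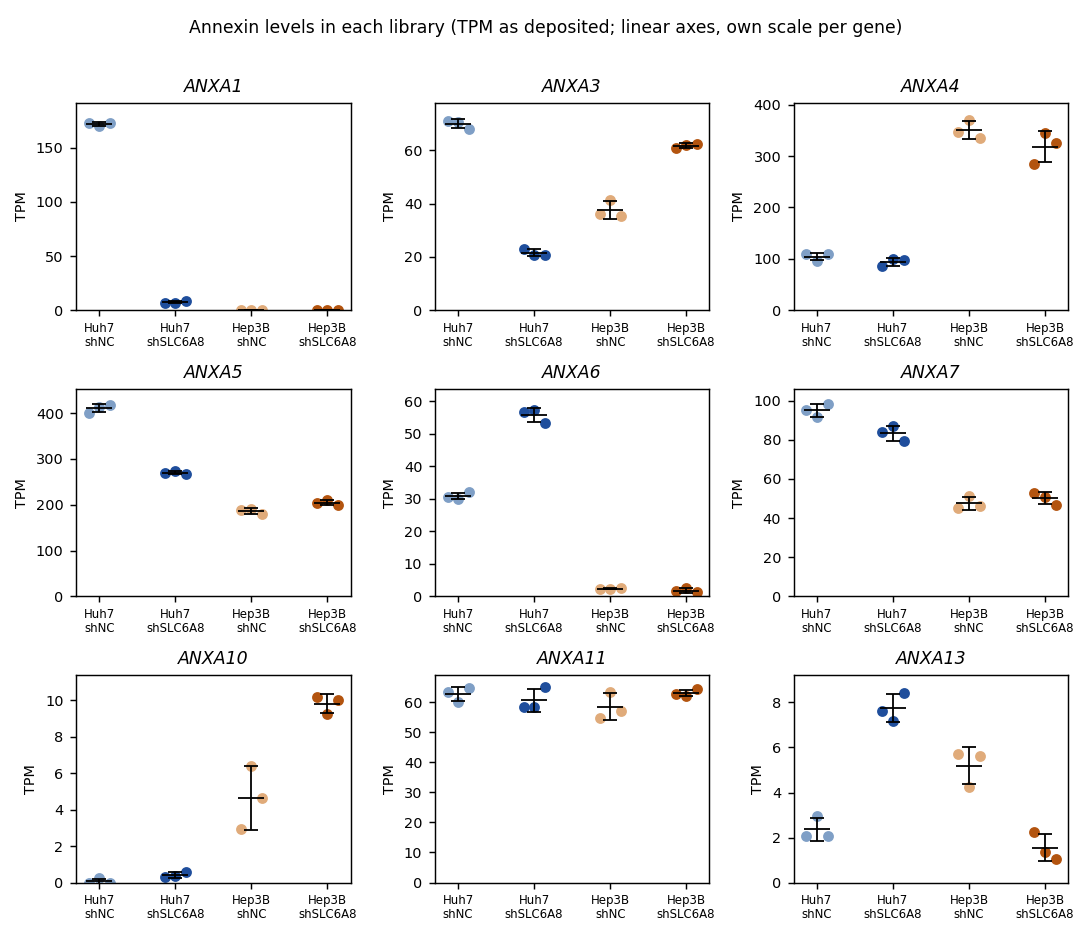
Level of each annexin in each of the 12 libraries (points), with the mean and SD of each group of 3 libraries (lines); the vertical axes are deposited TPM on a linear scale that differs between genes. ANXA1 lay at 170.21 to 173.21 TPM in Huh7 control and at 6.79 to 8.89 TPM in Huh7 knockdown libraries, and at or under 0.51 TPM in all Hep3B libraries.

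ANXA1 (ENSG00000135046, chromosome 9, 73151865 to 73170393, plus strand), the member with the anti-inflammatory role outside the cell, changed most among the tested members in Huh7. Its CPM was 172, 180 and 168 in the control libraries and 5.96, 6.23 and 7.98 in the knockdown libraries, which rest on 147 to 210 estimated counts. All knockdown libraries lay far below all controls. The fitted log2 fold change was -4.69 (SE 0.08), a level 25.7-fold lower. In Hep3B the same gene had 8, 5 and 0 counts in control and 9, 6 and 8 counts in knockdown libraries, too few to pass the filter. In the library with no count, the limit a count of 0 allows (3 counts) was 0.154 CPM, which covers counting error only, so a change was not detectable at this depth.

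ANXA3 and ANXA5 were the other members with the larger declines in Huh7. ANXA3 (ENSG00000138772, chromosome 4, 78551770 to 78610447, plus strand), which has been studied as a marker of liver cancer, had 68.1, 73.8 and 66.7 CPM in control and 19.8, 17.2 and 17.9 CPM in knockdown libraries of Huh7. The groups did not overlap, and the log2 fold change was -1.93 (SE 0.07). In Hep3B, ANXA3 had 32.9, 36.3 and 35.2 CPM in control and 50.6, 49.1 and 55.1 CPM in knockdown libraries. There all knockdown libraries lay above all controls, and the gene rose by a log2 fold change of 0.57 (SE 0.07, edgeR adjusted p = 0.000124). After knockdown, ANXA3 thus stood at 21.6 ± 1.33 TPM in Huh7 and 61.8 ± 0.909 TPM in Hep3B, against 70.0 and 37.7 TPM in the controls.

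ANXA5 (ENSG00000164111, chromosome 4, 121667946 to 121696980, minus strand), the phosphatidylserine-binding annexin used to label dying cells, had 478, 524 and 490 CPM in control and 279, 285 and 290 CPM in knockdown libraries of Huh7. The groups were well apart, with a log2 fold change of -0.80 (SE 0.05). In Hep3B the CPM was 209, 224 and 215 in control and 204, 201 and 212 in knockdown libraries. These groups overlapped, and the log2 fold change of -0.07 (95% interval -0.18 to 0.04) did not pass the test (edgeR adjusted p = 0.267). Scaled by library totals, ANXA5 was higher in Hep3B knockdown cells (log2 fold change 0.12, edgeR adjusted p = 0.0458), where that scaling moved the median of all genes to 0.203 from 0.013. In deposited TPM the Hep3B libraries did not overlap, at 179.86 to 191.02 in control and 199.81 to 211.46 in knockdown cells. There ANXA5 was called higher (limma on log2(TPM + 1), 0.13, adjusted p = 0.0416), with a median of all genes of 0.172.

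ANXA6 and ANXA13 were higher in knockdown cells of Huh7 and fell in those of Hep3B. ANXA6 (ENSG00000197043, chromosome 5, 151100706 to 151157779, minus strand), which has a duplicated core and acts at endosomes in cholesterol traffic, had 61.3, 63.7 and 63.5 CPM in control and 103, 103 and 101 CPM in knockdown libraries of Huh7. All knockdown libraries were higher, with a log2 fold change of 0.70 (SE 0.05). In Hep3B, ANXA6 was a low-count gene, at 3.59, 4.25 and 4.4 CPM in control and 2.49, 2.64 and 2.39 CPM in knockdown libraries, from 62 to 92 counts. The groups did not overlap in CPM, and the log2 fold change was -0.70 (SE 0.16, edgeR adjusted p = 0.00673). The call was lost with deposited TPM, where the groups overlapped (limma on log2(TPM + 1), -0.31, adjusted p = 0.191).

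ANXA13 (ENSG00000104537, chromosome 8, 123680794 to 123737393, minus strand) is a myristoylated annexin best known from intestinal epithelium. In Huh7 it had 2.15, 3.56 and 2.17 CPM in control and 7.50, 6.99 and 8.28 CPM in knockdown libraries. Each knockdown library was above each control, and the log2 fold change was 1.53 (SE 0.18). In Hep3B the CPM was 6.01, 4.62 and 6.25 in control and 1.94, 1.18 and 1.04 in knockdown libraries, from 27 to 129 counts. All knockdown libraries lay below all controls there, and the gene fell by 2.0 on the log2 scale (SE 0.24, edgeR adjusted p = 0.000127), a level 4-fold lower. With deposited TPM the value was -1.30 (limma on log2(TPM + 1), adjusted p = 0.00118).

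ANXA4 (ENSG00000196975, chromosome 2, 69643808 to 69827112, plus strand), an annexin of epithelial and secretory cells, had 486, 509 and 491 CPM in control and 347, 362 and 358 CPM in knockdown libraries of Hep3B. The groups did not overlap, and the gene fell by 0.48 on the log2 scale (SE 0.05, edgeR adjusted p = 2.66e-05). In TPM the same libraries overlapped, at 335.99 to 370.54 in control and 285.38 to 344.07 in knockdown cells, and the call was lost (limma on log2(TPM + 1), -0.14, adjusted p = 0.139). In Huh7, ANXA4 had 146, 142 and 142 CPM in control and 126, 131 and 126 CPM in knockdown libraries, with a log2 fold change of -0.17 (SE 0.05). That small difference was not called with library totals or with TPM. In the annotation ANXA4 overlaps AAK1 and AC092431.1 on the other strand, and since the strand setting is not given in the sources used here, reads from these genes cannot be told apart.

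ANXA7 and ANXA11, annexins with long N-terminal tails that bind ALG-2 and related calcium sensors, did not pass the test in Hep3B. ANXA7 (ENSG00000138279, chromosome 10, 73375101 to 73414058, minus strand), first described as a protein that fuses secretory granules, had 155, 150 and 159 CPM in control and 118, 122 and 125 CPM in knockdown libraries of Huh7. The groups were apart, with a log2 fold change of -0.35 (SE 0.05). In Hep3B its libraries overlapped, at a mean of 81.7 ± 5.72 CPM in control and 75.9 ± 2.30 CPM in knockdown cells, and the log2 fold change of -0.10 (95% interval -0.24 to 0.03) did not pass the test (edgeR adjusted p = 0.211). ANXA7 overlaps the antisense gene AL512656.1, with the same limit on telling strands apart.

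ANXA11 (ENSG00000122359, chromosome 10, 80150889 to 80205808, minus strand), which tethers RNA granules to lysosomes, had 131, 140 and 127 CPM in control and 126, 120 and 121 CPM in knockdown libraries of Huh7. The groups lay next to each other without overlap, with a log2 fold change of -0.12 (SE 0.05), and this call was lost in 10 of 15 alternative settings. In Hep3B the means were 116 ± 4.24 and 114 ± 6.52 CPM, with overlapping libraries and a log2 fold change of -0.03 (95% interval -0.16 to 0.10, edgeR adjusted p = 0.702). Scaled by library totals, ANXA11 was higher in Hep3B knockdown cells (log2 fold change 0.16, edgeR adjusted p = 0.024).

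ANXA10 (ENSG00000109511, chromosome 4, 168092537 to 168187736, plus strand) is an atypical annexin known from stomach epithelium, whose core has lost most calcium-binding sites. In Hep3B it had 1.54, 3.65 and 2.61 CPM in control and 4.88, 3.86 and 4.97 CPM in knockdown libraries, from 33 to 143 counts. Every knockdown library was above every control, though the second control lay just below the second knockdown library. The log2 fold change was 0.81 (SE 0.26, edgeR adjusted p = 0.0334). The call was lost without control library 1 (0.54, adjusted p = 0.0779), control library 3 (adjusted p = 0.0803), knockdown library 1 (adjusted p = 0.102) or knockdown library 3 (adjusted p = 0.0771), and in 1 fit of 12 libraries (adjusted p = 0.0733), all in edgeR. In Huh7 it had 0, 6 and 0 counts in control and 4, 5 and 8 in knockdown libraries and was not tested. ANXA10 overlaps the antisense gene AC116634.1, with the same limit on strands.

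**Figure D2:**
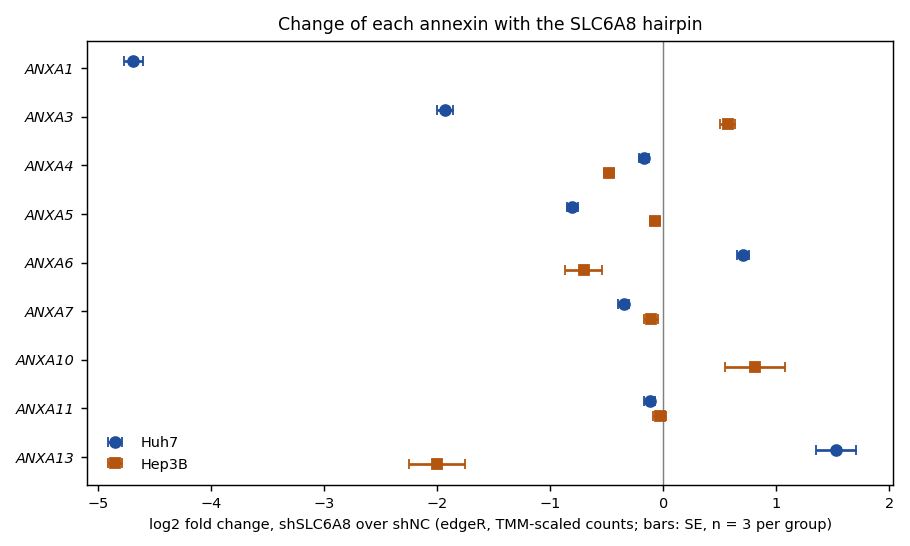
Log2 fold change of each annexin between shSLC6A8 and shNC libraries in Huh7 (circles) and Hep3B (squares), from edgeR on TMM-scaled counts, with bars of 1 SE and n = 3 per group; ANXA10 in Huh7 and ANXA1 in Hep3B were not tested and are not drawn. ANXA3, ANXA6 and ANXA13 lie on opposite sides of 0 in the 2 lines, while ANXA4, ANXA5, ANXA7 and ANXA11 lie below 0 in both. Of the latter, ANXA5, ANXA7 and ANXA11 did not pass the test in Hep3B.

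In Huh7, 8 of 9 members passed the filter on low counts and all 8 passed the threshold, where 61.8% of all 17022 tested genes did. Of them 6 were lower, beside 31.0% of all tested genes, and 2 were higher, beside 30.9%. Nothing is read from these counts, since the Huh7 comparison chose the family. In Hep3B, 8 of 9 members were tested and 5 were called, beside 40.1% of 16181 tested genes. ANXA4, ANXA6 and ANXA13 fell, beside 21.2% of all tested genes called lower, and ANXA3 and ANXA10 rose, beside 18.9% called higher. With 8 genes tested, these shares give no ground to set the annexins apart from other genes of Hep3B.

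The change in Huh7 minus the change in Hep3B was estimated in 1 fit of all 12 libraries and is given without a p, because it contains the Huh7 comparison. It was -2.50 (SE 0.10) for ANXA3, 1.40 (SE 0.12) for ANXA6 and 3.52 (SE 0.32) for ANXA13 on the log2 scale, and the directions in the 2 lines were opposite for these members. ANXA5 differed by -0.74 (SE 0.07), ANXA7 by -0.25 (SE 0.08), ANXA4 by 0.31 (SE 0.06) and ANXA11 by -0.09 (SE 0.08). The value for ANXA1, -5.13 (SE 0.64), rests on 0 to 9 counts per library in Hep3B, and was -5.87 without Hep3B control library 1 and -4.60 without control library 3. The value for ANXA10, 0.41 (SE 0.92), rests on 0 to 8 counts in Huh7. In all, 7 of 9 members passed the threshold for this difference, beside 47.1% of 18570 genes, and nothing is read from that count, since the Huh7 comparison is part of it. A further 4 annexin gene rows are not members and are not described. Of these, 2 were tested in each line, with 2 called in Huh7 and 1 in Hep3B.

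The makeup of the 9 members by transcript differed between the hairpins in each line. Other annexin gene rows are left out of these sums and shares. Summed over the 9 members, the level was 946, 935 and 965 TPM in Huh7 control and 591, 613 and 602 TPM in Huh7 knockdown libraries, so the knockdown libraries were all lower. Without ANXA1 the sum was 776 ± 14.2 and 594 ± 10.8 TPM. ANXA1 made up 18.2% ± 0.201 of the sum over the 9 members in control and 1.26% ± 0.188 in knockdown cells of Huh7 (SD, n = 3). The share of ANXA5 was 43.3% ± 0.893 and 44.9% ± 0.458, and that of ANXA4 was 11% ± 0.661 and 15.7% ± 1.06.

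In Hep3B the sum was 683, 731 and 668 TPM in control and 679, 744 and 712 TPM in knockdown libraries, and the groups overlapped. ANXA4 held 50.6% ± 0.248 of the members' sum in control and 44.7% ± 2.32 in knockdown cells, without overlap between libraries. ANXA5 held 26.9% ± 0.761 and 28.8% ± 0.973. After knockdown the order of levels in Huh7 was ANXA5, ANXA4, ANXA7, ANXA11, ANXA6, ANXA3, ANXA13, ANXA1 and ANXA10, with overlap between ANXA4 and ANXA7 and between ANXA13 at 7.74 ± 0.623 and ANXA1 at 7.59 ± 1.14 TPM. In Hep3B knockdown cells it was ANXA4, ANXA5, ANXA11, ANXA3, ANXA7, ANXA10, ANXA6, ANXA13 and ANXA1, with overlap between ANXA11 and ANXA3 and between ANXA6 and ANXA13.

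**Figure D3:**
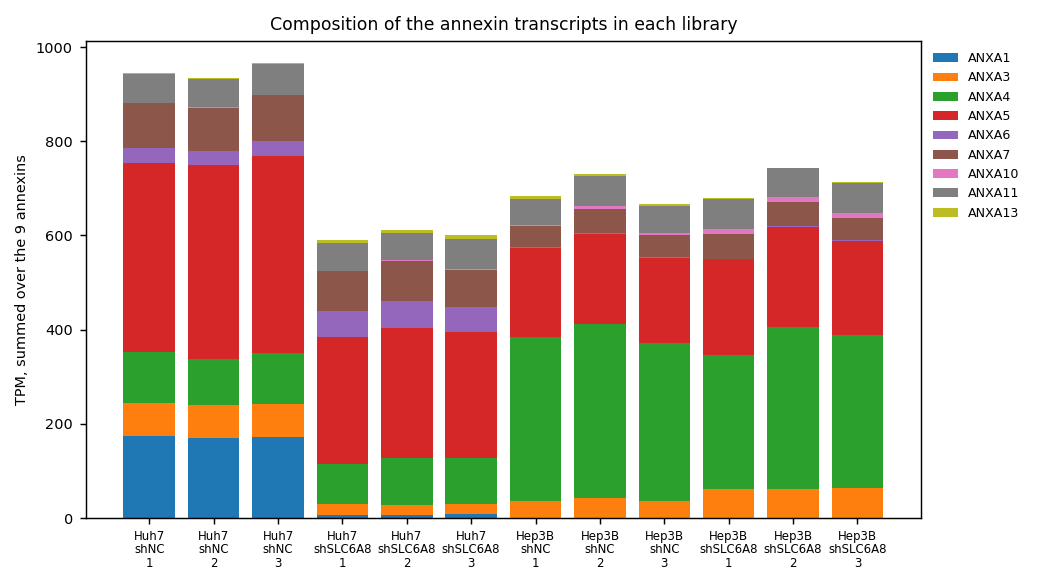
Deposited TPM of the 9 annexins stacked in each of the 12 libraries (vertical axis from 0, in TPM; 1 bar per library, colours by gene). The bars of Huh7 knockdown libraries, at 591 to 613 TPM, are shorter than those of Huh7 controls, at 935 to 965 TPM, and ANXA4 is the largest block in all Hep3B libraries.

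Genes that work with annexins were described in 5 lists, chosen like the members with earlier results of these data known. Their Huh7 values are therefore given as a description, with SE and no p. The Hep3B p-values below belong to genes named for a large change among those called, so they are no independent support. Counts of genes called are to be read beside all tested genes, of which 61.8% were called in Huh7 (30.9% higher, 31.0% lower) and 40.1% in Hep3B (18.9% higher, 21.2% lower). The first holds calcium-binding partners of annexin tails, the S100 proteins and the ALG-2 group. In Huh7, 6 of its 10 tested genes were called lower and 1 higher, with a median log2 fold change of -0.39, against 0.001 over all genes. S100P, a small calcium sensor, averaged 579 CPM in control and 221 CPM in knockdown cells (log2 fold change -1.39, SE 0.07). SRI, the ANXA7 partner sorcin, averaged 35.4 and 45.9 CPM (0.38, SE 0.07). In Hep3B, 5 fell and 2 rose (median -0.32, against 0.013 over all genes). S100A6 fell there from 7.14 to 1.34 CPM (-2.41, edgeR adjusted p = 1.48e-05) and SRI rose from 71.2 to 100 CPM (0.49, edgeR adjusted p = 0.000329).

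The membrane repair list holds dysferlin and its relatives, calpains, caveolae proteins and the ESCRT machinery, which reseal torn plasma membrane together with annexins. In Huh7, 12 of 17 tested genes were called lower, beside 31.0% of all genes, and 1 higher, with a median log2 fold change of -0.57. CAPN2, the catalytic subunit of a calcium-activated protease, averaged 53.2 CPM in control and 11.6 CPM in knockdown cells (-2.20, SE 0.07). VPS4A, an ATPase that recycles ESCRT filaments, averaged 91.9 and 105 CPM (0.19, SE 0.05), and 2 genes were called higher with deposited TPM or in 1 fit of 12 libraries. In Hep3B, 7 fell and 10 did not pass the test (median -0.20), and SYT7, a calcium sensor of lysosome exocytosis, fell from 21.1 to 7.21 CPM (-1.55, edgeR adjusted p = 4.38e-06). The count was 5 higher and 6 lower both with library totals and with deposited TPM, and 1 gene rose without knockdown library 2.

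The phosphatidylserine list holds the flippases and scramblases that set how much of the lipid bound by annexins faces outward. In Huh7, 6 of 11 tested genes were called, a share near the 61.8% of all genes called. All 6 were higher, beside 30.9% of all genes called higher, and the median of the list was 0.25. The number called higher in Huh7 was 8 both with library totals and with deposited TPM. ATP8A1, a flippase, averaged 0.873 CPM in control and 3.79 CPM in knockdown cells (2.12, SE 0.25). Without knockdown library 2, 1 gene of this list was called lower in Huh7. In Hep3B, 3 rose and 4 fell (median 0.03), but 6 were higher and 2 lower with library totals, and 4 higher and 1 lower with deposited TPM. PLSCR4, of the phospholipid scramblase family, fell there from 12.9 to 5.58 CPM (-1.21, edgeR adjusted p = 1.37e-05).

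The list of formyl peptide receptors, on which secreted ANXA1 acts, and of arachidonate enzymes had no receptor among its tested genes in either line. Its values are thus those of arachidonate enzymes. In Huh7, 7 of its 12 genes were tested. Of them 2 were called higher and 2 lower, with a median of 0.03, and 1 higher where a CPM of at least 1 in 3 libraries was required. PTGS1, a cyclooxygenase, averaged 1.96 CPM in control and 4.34 CPM in knockdown cells (1.14, SE 0.19), and PTGES, a prostaglandin E synthase, averaged 9.69 and 4.44 CPM (-1.12, SE 0.13). In Hep3B, 5 were tested, 1 rose and 1 fell (median -0.06). The one that fell was PLA2G6, a calcium-independent phospholipase, from 49.1 to 42.8 CPM (-0.20, edgeR adjusted p = 0.0399), and the number that fell was 0 without control library 1, 2 or 3 or knockdown library 1 or 3, and also with library totals or deposited TPM. Without control library 1, or with library totals, 2 genes rose.

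The glucocorticoid list holds the receptor and genes known to respond to it. In Huh7, 5 of 12 tested genes were called higher and 4 lower, with a median of 0.17, beside 61.8% of all genes called. HSD11B2, which inactivates cortisol, averaged 3.59 CPM in control and 20 CPM in knockdown cells (2.48, SE 0.11), and DUSP1, a phosphatase of MAP kinases, averaged 162 and 22.5 CPM (-2.85, SE 0.06). In Hep3B, 4 of 11 rose and 5 fell (median -0.10), but 5 were higher and 2 lower both with library totals and with deposited TPM. ZBTB16, a transcription factor, rose from 1.63 to 2.86 CPM (0.80, edgeR adjusted p = 0.0309), and ZFP36, which destabilises inflammatory mRNAs, fell from 49.3 to 30.3 CPM (-0.70, edgeR adjusted p = 2.31e-05). The number that rose in Hep3B was 2 without control library 2 or 3 or knockdown library 1 or 2.

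**Figure D4:**
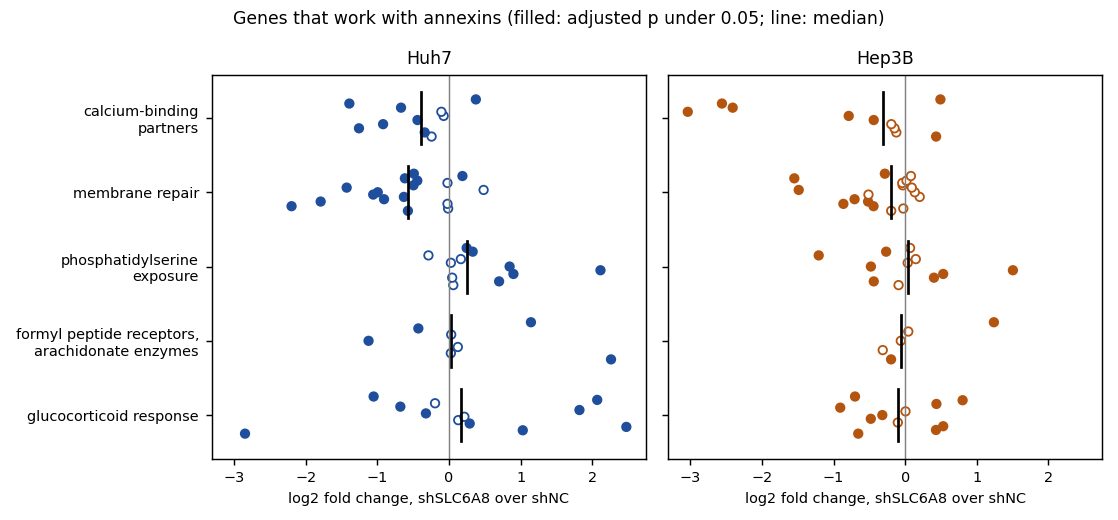
Log2 fold change (horizontal axis) between shSLC6A8 and shNC libraries of the tested genes of 5 lists (rows) in Huh7 and Hep3B; each point is a gene, filled where the edgeR adjusted p was under 0.05, and the short vertical line is the list's median. The membrane repair medians are -0.57 in Huh7 and -0.20 in Hep3B, and the phosphatidylserine medians are 0.25 and 0.03.

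Across the 12 libraries, the genes whose log2 CPM followed that of ANXA1 most closely among 12863 ranked genes were PDCD6IP-DT (Pearson r = 0.992), NUBP1 (0.991), OSTM1 (0.991), AQP3 (0.991) and METTL4 (0.990). These coefficients are descriptions with no test, and the 12 points fall into 4 groups, so they reflect mainly the differences between groups. In Hep3B, ANXA1 had only 0 to 9 counts per library, so its log2 CPM there is poorly measured. AQP3, a water and glycerol channel, averaged 169 CPM in Huh7 control, 77.6 in Huh7 knockdown, 34.6 in Hep3B control and 37.7 CPM in Hep3B knockdown cells. PDCD6IP-DT, a transcript divergent from the ESCRT partner gene PDCD6IP, averaged 20.4, 9.11, 3.86 and 4.57 CPM in the same order. Both were highest in Huh7 control cells and lower in Hep3B, and their decline in Huh7 was smaller than that of ANXA1, which averaged 173 and 6.72 CPM. NUBP1 (33.7 to 23.4 CPM), OSTM1 (45.8 to 36.9) and METTL4 (29.6 to 19.4) declined still less in Huh7. CPM was scaled within each line, so these levels compare across lines only approximately.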

How the data were processed

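RNA was sequenced in 12 libraries. Per the labels' protocols, libraries were made from total RNA with a SMARTer mRNA kit. The submitters' processing notes name GRCh38.p14 as the build. Which aligner, counter, annotation and strand setting were used is not given in the sources used here. The authors deposited, per the file headers, an estimated count and a TPM value for each gene and library, and a log2 fold change with an adjusted p-value whose tool is not given. The authors' deposited log2 and p-value columns are not reported here. The deposited TPM of a library added up to 1000000 (Huh7) or on average 998326 (Hep3B). Other columns of sample values numbered 0.

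The members and gene lists were chosen with earlier results of these data known. Estimated counts were rounded, filtered by filterByExpr and scaled by TMM. Tests were the robust quasi-likelihood test of edgeR 4.0.16 in R 4.3.3, on the 6 libraries of a line, with Benjamini-Hochberg adjustment over all tested genes and a threshold of 0.05. The difference between lines used 1 fit of 12 libraries. SE was approximated as the log2 fold change over the square root of the F statistic. The prior count of log2 CPM was 2. Replicates varied by 5.92% (Huh7) and 7.77% (Hep3B), as the common biological coefficient of variation.

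Named genes were the 9 members, SLC6A8, the called gene with the largest change per list, line and direction (mean log2 CPM at least 1), and the 5 genes most correlated with ANXA1. Of these, 1 gene is not reported here. Symbols came from the deposited tables, and coordinates and promoters from RefSeq on the same build. Overlapping genes came from another annotation release of GRCh38. Alternatives were library totals, size factors from DESeq2 1.42.0, the DESeq2 test, limma-voom (limma 3.58.1), other filters, a fold limit, 1 fit of 12 libraries, a replicate block and leaving out each library. A limma test on log2(TPM + 1) was added after seeing the data. The steps were tested on simulated counts, and every pair of replicates differed by more than sampling noise.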

Additional observations from a re-analysis of the deposited data

Results flagged for a closer look

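In CPM, every knockdown library of Huh7 moved one way against its controls and every knockdown library of Hep3B moved the opposite way in 3 members. Of all tested genes, 61.8% were called in Huh7 (30.9% higher, 31.0% lower) and 40.1% in Hep3B (18.9% higher, 21.2% lower). The share of all genes with such opposite moves was not counted. The number of members is therefore not read as a trait of annexins. The change in Huh7 minus that in Hep3B, on the log2 scale, was -2.50 for ANXA3, 1.40 for ANXA6 and 3.52 for ANXA13. ANXA3 was lower in Huh7 and rose in Hep3B, while ANXA6 and ANXA13 were higher in Huh7 and fell in Hep3B. The difference was fitted with the other genes, but no p is given and no test of it is claimed for these members, because the Huh7 comparison had been used to choose the family. In Hep3B, ANXA6 rested on 62 to 92 and ANXA13 on 27 to 129 counts per library. In TPM the ANXA6 libraries of Hep3B overlapped and its call was lost, and the difference was 1.14 for ANXA6 and 2.69 for ANXA13.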

How the results depend on the processing

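In Hep3B, ANXA3 and ANXA13 had the same direction and side of the threshold in all 15 alternatives run for each. In Huh7 all tested members kept their direction in all 15. That is a description only, since the Huh7 comparison chose the family and the alternatives reuse its libraries. Genes called with an absolute log2 fold of 1 or more numbered 2584 in Huh7, 1107 in Hep3B and 3078 for the difference, against 10525, 6488 and 8753 without that limit. Annexins called higher in Hep3B, 2 in the reported fit, numbered 4 with library totals and 3 with deposited TPM. They numbered 1 in 1 fit of 12 libraries and 1 to 2 when a library was left out. Those called lower in Hep3B numbered 1, against 3, with deposited TPM. With library totals, which moved the median of all genes to 0.105 in Huh7 and 0.203 in Hep3B, higher calls made up 59.7% against 49.9% and 76.2% against 47.2%, and in Hep3B ANXA5 (0.12), ANXA7 (0.09) and ANXA11 (0.16) turned positive. With TPM, ANXA5 (0.13), ANXA7 (0.08) and ANXA11 (0.11) turned positive in Hep3B, and the difference between lines reversed for ANXA4 (-0.0004) and ANXA10 (-0.59). That for ANXA10 ran from -0.17 to 4.59 when a library was left out, and was -0.13 without Huh7 control library 1. The cause of these shifts was not tested. Among counts of list genes, 271 alternatives stayed within 1.5 times the reported count and 29 moved further. Low counts limit ANXA1 and ANXA6 in Hep3B, and ANXA10 and ANXA13 in both lines.

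No sign was seen that replicate numbers pair the libraries. Deviations of same-numbered libraries correlated at 0.040, -0.061 and -0.030 in Huh7 and at -0.056, -0.095 and 0.095 in Hep3B. Not every library correlated best with its own number. With 3 libraries in each group, these correlations cannot exclude a pairing. With a replicate block, 10125 genes were called in Huh7, 6221 in Hep3B and 8382 for the difference; annexins called lower in Huh7 numbered 5 against 6, and those called in Hep3B stayed at 2 higher and 3 lower.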
